A study of Homo sapiens with 36 samples.

Results

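The genes described here encode the phagocyte NADPH oxidase. They are NCF1 (p47phox), its near-identical copies NCF1B and NCF1C, NCF4 (p40phox), CYBA (p22phox), CYBB (NOX2, gp91phox) and RAC2. These 7 genes, of 35442 gene symbols with a value, were chosen by name, and NCF1 was singled out for its difference between the lines studied, in which its copies NCF1C and NCF1B stand higher still. The choice used the comparison of A9 with DMSO in both lines, so the values of these 7 genes are given as a description and carry no test. Tests are given for other genes of the pathway only.

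RNA was sequenced from the lines MOLM-13 and MONO-MAC-6, both grown from human acute myeloid leukaemia and labelled as wild type, after 72 h with DMSO or with A9. A9 is a PROTAC, a molecule that brings chosen proteins to the cell's degradation machinery, and the series' title names IKK1 and NR4A1 as its targets while the design text names IKK2 and NR4A1. The groups were MOLM-13 with DMSO, MOLM-13 with 0.125 µM A9, MONO-MAC-6 with DMSO and MONO-MAC-6 with 0.25 µM A9. Each group had 9 libraries, while the design text states N = 3. The first number of the label was taken as the sample, and the libraries sharing it were averaged, giving 3 samples per group. Nothing in the labels says that the samples were separate cultures, so the p-values measure the spread between these samples, which may be technical. Each line was given its own single dose, and in any difference between the lines the dose and the line cannot be told apart.

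The deposited values are TPM, a measure of transcript abundance per length that holds no counts, so the depth reached is unknown. Transcripts above 0 numbered 86918 to 105082 per library, and mitochondrial genes held 4.85% to 9.47% of TPM. In MONO-MAC-6, DMSO sample 1 stood apart on the first principal component (77.5% of the variance), at 55.3 against -18.9 to 0.89 in the other 5 samples. Where this sample moved a result by much, the value without it is given as well. In MOLM-13 the first component held 77.0% of the variance, and the DMSO and A9 groups overlapped on it. The DMSO samples were at -25.6, -6.31 and 11.8, and the A9 samples at -1.02, -11.4 and 32.5. Of 9 myeloid markers, 7 or 8 reached a mean of 1 TPM in each group, and the 6 T cell markers summed to 0.35 to 0.91 TPM per sample. CSF1R and CD14 were below 1 TPM in MOLM-13 with DMSO, at 0.514 and 0.295 TPM.

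The NADPH oxidase of phagocytes moves electrons from NADPH across a membrane to oxygen and so makes superoxide, which neutrophils and monocytes use against microbes. CYBB and CYBA form its membrane part, cytochrome b558, which holds the flavin and haem groups. Cytosolic subunits, NCF1 and NCF4 among them, move to the membrane on activation together with a RAC GTPase, RAC2 being the form typical of blood cells. Loss of one of the main subunits causes chronic granulomatous disease, and the genes are switched on as myeloid cells mature.

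With A9, the NCF1 family and CYBB were higher in MONO-MAC-6, and the NCF1 family was lower in MOLM-13. NCF1 was 2.67 times its DMSO mean in MONO-MAC-6 and 0.655 times in MOLM-13. CYBB was 3.59 times its DMSO mean in MONO-MAC-6 and was at most 0.263 TPM in any MOLM-13 sample. NCF4 was 1.35 times as high in MONO-MAC-6, while CYBA, the most abundant of the 7, was 0.900 times its DMSO mean in MONO-MAC-6 and 1.02 times in MOLM-13. RAC2 was 0.825 times its DMSO mean in MOLM-13 and 0.892 times in MONO-MAC-6.

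In MONO-MAC-6 all A9 samples were above all DMSO samples for 5 of the 7 genes, against 27.2% of the 12862 genes tested there, and below for 0, against 10.7%. In MOLM-13 all A9 samples were below all DMSO samples for 4 of the 6 genes that passed the filter, against 6.43% of 11590 genes, and above for 0, against 8.59%. CYBB did not reach the minimum of a mean of 1 TPM in a MOLM-13 group. These contrasts chose the genes, so nothing is read from the counts. For scale, the threshold of an adjusted p under 0.05 (limma with Benjamini-Hochberg adjustment) was passed by 0.121% of genes in MOLM-13, 3.37% in MONO-MAC-6 (2.51% higher and 0.855% lower) and 2.99% for the difference between the lines. An unadjusted p under 0.05 was reached by 7.89% of all genes tested in MOLM-13, 20.5% in MONO-MAC-6 and 17.7% for the difference, and the counts of such genes given for the lists are to be read against these shares. The median log2 fold change of the 6 or 7 genes was -0.37 for MOLM-13 and 1.41 for MONO-MAC-6, where all tested genes had medians of -0.05 and 0.16. NCF1 and its near-identical copies stand in both medians and among the 5 and the 4 genes above. The 1.41 is the value of NCF1 itself, and nothing is read from the medians either. Fold changes are on the scale of log2(TPM + 1), which understates the change of low genes such as CYBB.

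**Figure D1:**
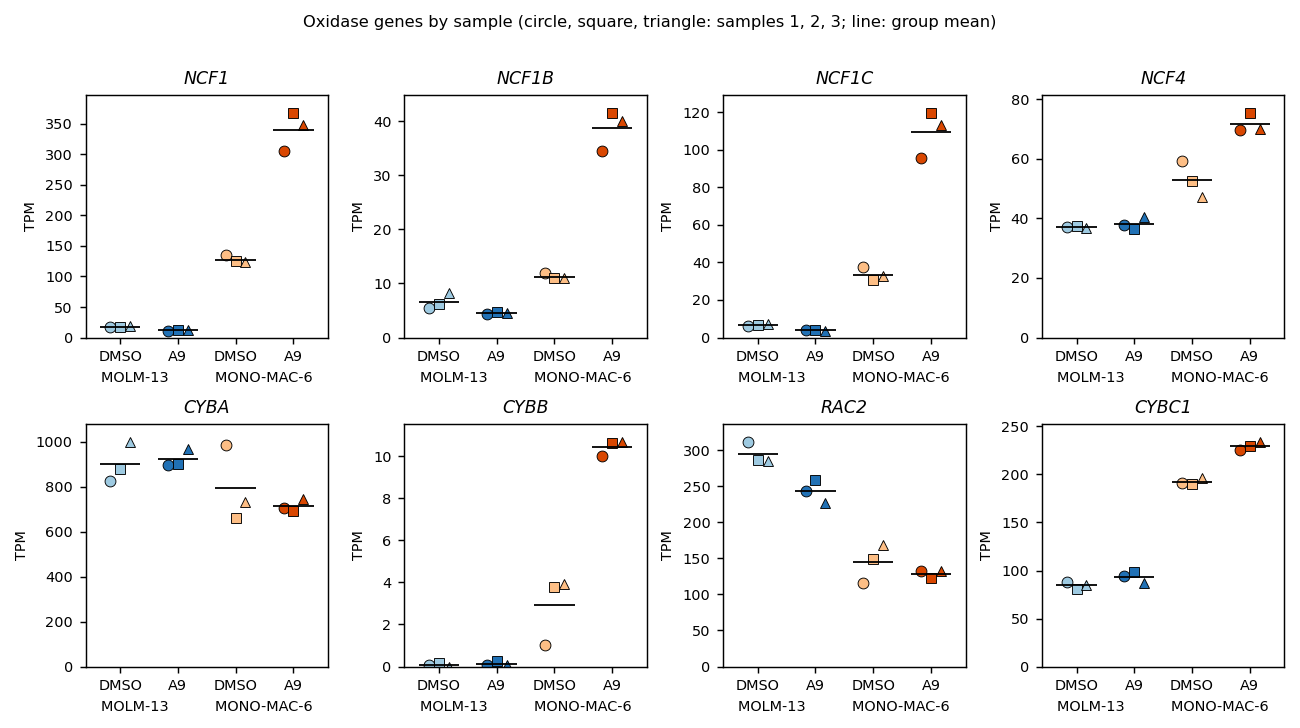
TPM (vertical axes, linear from 0) of the 7 oxidase genes and of CYBC1, described further on, in the 3 DMSO and 3 A9 samples of each line, with the group mean as a line. NCF1 lies between 306 and 368 TPM in MONO-MAC-6 with A9 and between 11.3 and 12 TPM in MOLM-13 with A9, and CYBB is at most 0.263 TPM in MOLM-13.

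NCF1 encodes the organiser of the complex, the cytosolic subunit that is phosphorylated on activation and docks on CYBA. It lies at chr7:74773962-74789315 on the plus strand (GRCh38, GENCODE 29, ENSG00000158517). Its copies lie on the same chromosome, NCF1B at chr7:73220624-73235945 on the plus strand and NCF1C at chr7:75156639-75172044 on the minus strand, and both are annotated as pseudogenes. The classic difference between gene and pseudogene is at the start of exon 2, where NCF1 repeats GT and a pseudogene lacks the repeat. The transcript models around the join of exons 1 and 2 are shown because they bear on whether reads of the 3 genes can be told apart, with the GT letters in capitals (5′ to 3′, from the GENCODE 29 transcripts NCF1-201, NCF1B-203 and NCF1C-201).
NCF1: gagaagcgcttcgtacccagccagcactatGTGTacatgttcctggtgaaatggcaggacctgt
NCF1B: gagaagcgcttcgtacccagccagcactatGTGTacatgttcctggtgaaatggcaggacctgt
NCF1C: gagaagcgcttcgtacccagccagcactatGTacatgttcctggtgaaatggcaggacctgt
The NCF1C model has a single GT here and the NCF1 model has GTGT. The NCF1B model also reads GTGT, but its annotated exon 1 ends after the third capital, whereas exon 2 of NCF1 and NCF1C opens with the first. Exon 1 is at chr7:74773962-74774103 and exon 2 at chr7:74777267-74777347 for NCF1.

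Outside this join the models are almost the same where they align. NCF1-201 has 1396 bases, NCF1B-203 has 1254 and NCF1C-201 has 1427. NCF1-201 and NCF1C-201 aligned over 1394 bases with 8 mismatches (99.4% identity), and NCF1-201 and NCF1B-203 over 1167 bases with 12 mismatches (99.0% identity). Of the 1366 stretches of 31 bases in NCF1-201, 1252 (91.7%) also occur in a GENCODE transcript of another gene, in each case NCF1B or NCF1C. For NCF1C-201 this share was 86.0% and for NCF1B-203 it was 68.5%. CYBA, CYBB and NCF4 had 0 such stretches in their main transcripts on the transcript strand, and RAC2 had 3, shared with RAC1. Division of reads among NCF1, NCF1B and NCF1C by the quantifier is therefore uncertain, and the sum of the 3 genes is given beside each one.

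In MONO-MAC-6, NCF1 had 135, 125 and 123 TPM in DMSO samples 1 to 3 and 306, 368 and 348 TPM in the A9 samples. The groups did not overlap, and the lowest A9 sample, sample 1, was well above the highest DMSO sample. Mean levels were 128 ± 6.12 (DMSO) and 341 ± 31.5 TPM (A9; SD, n = 3 each), and the log2 fold change was 1.41. In MOLM-13, NCF1 had 17.6, 16.9 and 19.0 TPM with DMSO and 11.3, 11.7 and 12 TPM with A9. All A9 samples were below all DMSO samples there, and the log2 fold change was -0.57. The difference between the lines was 1.98 on the log2 scale. NCF1 was also the more abundant gene in MONO-MAC-6 before any A9, at 7.15 times its MOLM-13 level with DMSO and 29.1 times with A9. Levels of the lines come from separate tables and are set side by side without a test.

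NCF1C followed the same order of groups. It had 37.5, 30.5 and 32.7 TPM with DMSO and 95.4, 119 and 113 TPM with A9 in MONO-MAC-6, a log2 fold change of 1.67. The MOLM-13 levels were 6.21, 6.67 and 7.05 TPM with DMSO and 3.88, 4.25 and 3.67 TPM with A9, a log2 fold change of -0.63. Neither pair of groups overlapped. NCF1B had 11.9, 11.0 and 11.0 TPM with DMSO and 34.6, 41.5 and 40.0 TPM with A9 in MONO-MAC-6, a log2 fold change of 1.69. The MOLM-13 levels were 5.50, 6.14 and 8.18 TPM with DMSO and 4.30, 4.73 and 4.45 TPM with A9, a log2 fold change of -0.45. NCF1B spread most among the MOLM-13 DMSO samples of the 3 genes, and sample 3 was its highest.

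Summed over the 3 genes, the MONO-MAC-6 family level was 172 ± 10.0 (DMSO) and 489 ± 47.7 TPM (A9; SD, n = 3 each). The MOLM-13 sums were 31.1 ± 2.72 and 20.1 ± 0.599 TPM (SD, n = 3 each). The log2 fold changes of the sum were 1.5 and -0.60, a difference of 2.10. The sum depends less than each gene on how reads were divided among the copies. It is not free of that division, since TPM also follow transcript length. Genes that lay below DMSO in every MOLM-13 A9 sample and above it in every MONO-MAC-6 A9 sample made up 0.724% of 11051 genes. The NCF1 genes were chosen with these contrasts known, so nothing is read from this share.

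The make-up of the family differed between the lines. NCF1B held 18.7% to 23.9% of the summed TPM in the MOLM-13 DMSO samples and 22.0% to 22.8% in the A9 samples, against 6.48% to 6.58% and 7.85% to 7.98% in MONO-MAC-6. NCF1C held 18.3% to 22.6% over all 12 samples. NCF1 itself held 55.5% to 60.1% in MOLM-13 and 69.4% to 75.1% in MONO-MAC-6. Within MONO-MAC-6 the NCF1 share was 73.2% to 75.1% with DMSO and 69.4% to 70.2% with A9, so the groups did not overlap. Whether these shares follow the cells or the division of near-identical reads was not tested.

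**Figure D2:**
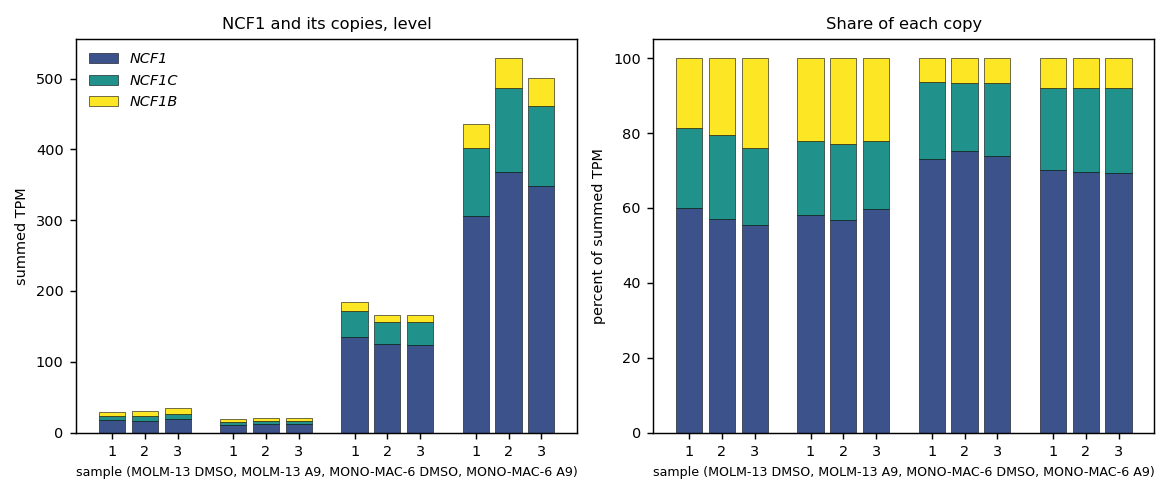
Level (left, summed TPM) and share (right, percent of summed TPM) of NCF1, NCF1C and NCF1B in each of the 12 samples, as bars stacked from 0. The yellow NCF1B part is 18.7% to 23.9% of the bar in MOLM-13 and 6.48% to 7.98% in MONO-MAC-6, and the bars are tallest in MONO-MAC-6 with A9.

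The main protein-coding transcript NCF1-201 carried most of the NCF1 signal. In MONO-MAC-6 it went from 105 ± 7.28 TPM to 273 ± 25.0 TPM (SD, n = 3) and held 82.2% of the gene with DMSO and 80.0% with A9. The 5 transcripts annotated with a retained intron held 10.7%, 15.5% and 14.3% of NCF1 in the DMSO samples and 16.9%, 17.8% and 16.9% in the A9 samples. The lowest of these shares was in DMSO sample 1, the sample that stood apart. Among them, NCF1-207 went from 6.12 ± 3.43 TPM to 24.6 ± 2.57 TPM (SD, n = 3). In MOLM-13 the retained-intron share was 11.6% ± 1.61 (SD, n = 3) with DMSO and 11.3% ± 0.680 (SD, n = 3) with A9.

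CYBB, the catalytic subunit, lies at chrX:37780011-37813461 (plus strand, ENSG00000165168). The 3 MONO-MAC-6 DMSO samples had 1.01, 3.77 and 3.93 TPM, and the 3 A9 samples had 10.0, 10.6 and 10.7 TPM. The A9 samples were close together and above every DMSO sample. The log2 fold change was 1.66, and it was 1.24 without DMSO sample 1, where CYBB was lowest. The fold of the means fell in the same way from 3.59 to 2.71. In MOLM-13 CYBB had 0.0655, 0.178 and 0 TPM with DMSO and 0.0818, 0.263 and 0.0541 TPM with A9, and these near-0 groups overlapped.

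CYBA, the membrane partner that stabilises CYBB, was expressed at a far higher level (chr16:88643283-88651152, minus strand, ENSG00000051523). MOLM-13 had 827, 877 and 999 TPM with DMSO and 898, 901 and 970.0 TPM with A9. MONO-MAC-6 had 988, 663 and 730.3 TPM with DMSO and 706, 692 and 744 TPM with A9. The groups overlapped in both lines, with log2 fold changes of 0.04 and -0.13. The MONO-MAC-6 value was 0.04 without DMSO sample 1, the highest of its group. CYBA exceeded CYBB in every sample, and in the MONO-MAC-6 DMSO group the means were 794 ± 172 and 2.91 ± 1.64 TPM (SD, n = 3).

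RefSeq promoter sequences (GRCh38.p14) were given for 3 of the 7 genes, NCF1, CYBA and CYBB. The 250 bases before the start are shown for NCF1 and CYBB, the genes with the highest folds in MONO-MAC-6 among those with a sequence, each 5′ to 3′ on the gene's own strand. Capitals mark GAGGAA, the core searched for PU.1 (encoded by SPI1, a master factor of myeloid genes), here read on the opposite strand.
NCF1, chr7:74773761-74774010, plus strand: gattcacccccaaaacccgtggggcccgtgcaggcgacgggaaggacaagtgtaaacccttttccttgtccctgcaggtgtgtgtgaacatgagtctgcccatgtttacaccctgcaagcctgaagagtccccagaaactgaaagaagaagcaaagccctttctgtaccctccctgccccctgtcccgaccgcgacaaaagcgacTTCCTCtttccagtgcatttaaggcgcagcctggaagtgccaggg
CYBB, chrX:37779809-37780058, plus strand: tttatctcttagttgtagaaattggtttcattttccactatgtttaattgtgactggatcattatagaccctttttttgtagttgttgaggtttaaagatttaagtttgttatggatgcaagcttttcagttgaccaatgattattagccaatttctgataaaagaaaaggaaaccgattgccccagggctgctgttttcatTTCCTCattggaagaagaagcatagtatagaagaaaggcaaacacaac
The match begins 45 bases before the RefSeq start in NCF1 and 48 bases before it in CYBB. All starts in this search are those of RefSeq. The GENCODE starts, chr7:74773962 for NCF1 and chrX:37780011 for CYBB, lie within the 250 bases shown. By the GENCODE starts, the match lies inside the annotated gene in NCF1 and begins at its first base in CYBB. The GENCODE start of CYBA, chr16:88651152 on the minus strand, also lies within its RefSeq promoter. GAGGAA occurs on either strand in 27.9% of the 34796 promoters searched (300 bases each, from 250 before to 50 after the start). The IRF element, searched as GAAA, 2 bases of any kind and GAAA, had 1 match in NCF1 and 2 in CYBB, against 3.57% of promoters with a match. TTGCNNNAA (C/EBP), TGANTCA (AP-1), AAAGGTCA (the NR4A response element NBRE) and the NF-kB consensus (GGG, a purine, any base, 3 pyrimidines and CC) had 0 matches in NCF1, CYBA and CYBB, against 9.19%, 7.73%, 1.21% and 7.73% of promoters. CYBA had no match to any of the 6 patterns as spelled here, and looser forms, of the NF-kB pattern among others, were not searched. The search used both strands, the PU.1 and IRF matches did not overlap, and a match is only a run of letters.

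NCF4 encodes p40phox, which binds phosphatidylinositol 3-phosphate on phagosomes and sustains the oxidase there (chr22:36860988-36878015, plus strand, ENSG00000100365). MONO-MAC-6 had 59.2, 52.6 and 47.2 TPM with DMSO and 69.6, 75.4 and 70.2 TPM with A9. All A9 samples were above all DMSO samples, with a log2 fold change of 0.43, which was 0.28 after median-ratio scaling. MOLM-13 had 37.1, 37.6 and 36.8 TPM with DMSO and 37.6, 36.5 and 40.6 TPM with A9, and the groups overlapped. The antisense gene NCF4-AS1 shares 27 of the 1759 exonic bases of NCF4 (1.53%, GENCODE 29). No use of strand is stated in the labels, so reads within those bases could not be assigned to one gene.

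RAC2 is the GTPase that switches the assembled oxidase on (chr22:37225261-37244448, minus strand, ENSG00000128340). MOLM-13 samples had 311, 286 and 285 TPM with DMSO and 243, 259 and 226 TPM with A9, and all A9 samples were lower. Its log2 fold change there was -0.28. MONO-MAC-6 samples had 116, 149.7 and 168 TPM with DMSO and 133, 122 and 132 TPM with A9, and the groups overlapped. The log2 fold change was -0.15, and -0.30 without DMSO sample 1, the lowest of its group. RAC2 was the only one of the 7 besides CYBA with a lower DMSO level in MONO-MAC-6 than in MOLM-13, at 0.491 times.

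Ordered by the log2 difference of the A9 effect, MONO-MAC-6 minus MOLM-13, the genes ran NCF1C at 2.31, NCF1B at 2.14, NCF1 at 1.98, CYBB at 1.59, NCF4 at 0.40, RAC2 at 0.13 and CYBA at -0.17. The first 3 lie close together, and their reads are partly shared. CYBB was under the filter in MOLM-13, where the log2(TPM + 1) scale holds its change near 0. The CYBB value thus mostly repeats the change in MONO-MAC-6, and it was 1.17 without MONO-MAC-6 DMSO sample 1. RAC2 turned to -0.08 after median-ratio scaling, so its sign depends on the scaling, and CYBA was -0.38. Among 13401 genes, 15 had a higher difference than NCF1C, 27 than NCF1B and 37 than NCF1. The choice of these genes used this difference, so nothing is read from the ranks. Spread also set the genes apart. The SD of log2 values between samples within groups was 0.09 for NCF1 and NCF4, 0.17 for CYBA and 0.38 for CYBB, while the SD between libraries of a sample was 0.02 for CYBA and 0.24 for CYBB.

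**Figure D3:**
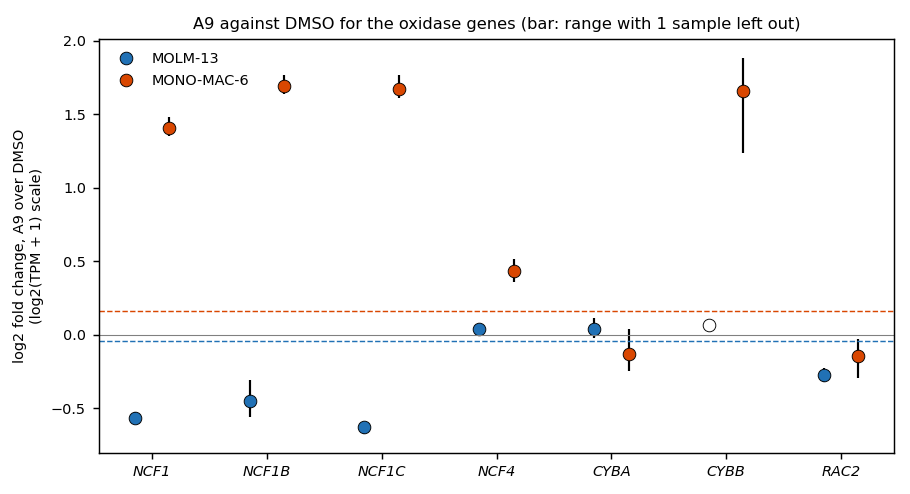
Log2 fold change of A9 over DMSO (vertical axis, log2(TPM + 1) scale) for each oxidase gene in MOLM-13 (blue) and MONO-MAC-6 (orange), with vertical bars for the range when 1 sample is left out and dashed lines at the median of all genes, -0.05 and 0.16. The open point is CYBB in MOLM-13, which was under the filter, and the 3 NCF1 genes lie below 0 in MOLM-13 and at 1.41 to 1.69 in MONO-MAC-6.

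CYBC1, the chaperone that CYBB and CYBA need for maturation, was at 193 ± 3.61 (DMSO) and 229.6 ± 4.27 TPM (A9) in MONO-MAC-6 (SD, n = 3). Its log2 fold change of 0.25 had an adjusted p of 0.108 (limma). Without DMSO sample 1, a fit in which 3202 genes passed, the adjusted p was 0.00427 (limma). Without any other single sample it was 0.145 to 0.428 (limma). After median-ratio scaling the log2 fold change was 0.09 (adjusted p = 0.677, limma). The MOLM-13 value was 0.13 (adjusted p = 0.764, limma), and the difference between the lines was 0.12 (adjusted p = 0.425, limma).

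RAC1, the widely expressed relative that can replace RAC2, did not pass the test in either line, with log2 fold changes of 0.25 in MOLM-13 (adjusted p = 0.741, limma) and -0.18 in MONO-MAC-6 (adjusted p = 0.387, limma). The ratio of RAC1 to RAC2 was 0.433 to 0.635 in MOLM-13 with DMSO and 0.662 to 0.910 with A9, and 1.38 to 2.52 and 1.65 to 1.80 in MONO-MAC-6. The 2.52 came from DMSO sample 1, and the other 2 DMSO samples, at 1.38 and 1.505, lay below all A9 samples. Of 6 GTPases related to RAC2, 0 of 5 tested in MOLM-13 and 0 of 6 in MONO-MAC-6 passed (limma), with 1 and 0 at an unadjusted p under 0.05.

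Of 19 other genes of oxidase assembly and activation, all were tested in both lines. In MONO-MAC-6, 1 rose, 0 fell and 18 did not pass, with a median log2 fold change of 0.30 against 0.16 for all genes. There, 3 of the 19 reached an unadjusted p under 0.05 (limma). The gene that rose was ARHGDIB, which encodes a leukocyte GDP-dissociation inhibitor that holds RAC in the cytosol. ARHGDIB had 328, 407 and 395 TPM with DMSO and 591, 665 and 634 TPM with A9 (log2 fold change 0.74, SE 0.11, adjusted p = 0.0203, limma). The MOLM-13 log2 fold change was 0.05, and the difference between the lines passed (0.69, adjusted p = 0.0217, limma), though not after median-ratio scaling (0.48, adjusted p = 0.0626). In MOLM-13, 0 of the 19 passed (limma), with 1 at an unadjusted p under 0.05.

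Genes that supply NADPH, the fuel of the oxidase, included 3 that rose, 0 that fell and 6 that did not pass of 9 tested in MONO-MAC-6. There, 6 of the 9 reached an unadjusted p under 0.05 (limma). PGD, an NADPH-forming enzyme of the pentose phosphate pathway, rose by a log2 fold change of 0.96, from 113 ± 21.6 to 219 ± 15.7 TPM (SD, n = 3; adjusted p = 0.0280, limma). NADK, which makes NADP from NAD, rose by 0.84 (adjusted p = 0.0197, limma), and TKT, of the non-oxidative branch, rose by 0.64 (adjusted p = 0.0371, limma). PGLS, IDH2 and MTHFD1 were among those that did not pass, at -0.27, -0.19 and 0.19. In MOLM-13, 0 of 9 passed (limma), with 2 at an unadjusted p under 0.05. The difference between the lines passed for 0 of the 9 (limma), with 3 at an unadjusted p under 0.05. After median-ratio scaling it passed for NADK and PGD (adjusted p = 0.0123 and 0.0403, limma), while the TKT call in MONO-MAC-6 was lost (adjusted p = 0.0758).

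Of 15 tested genes that handle superoxide and peroxide, 1 fell, 0 rose and 14 did not pass in MONO-MAC-6. An unadjusted p under 0.05 was reached there by 9 of the 15, in both directions, and by 9 for the difference between the lines (limma). PRDX1, a peroxiredoxin that reduces hydrogen peroxide, fell from 1788, 1489 and 1483 TPM to 1079, 1054 and 1081 TPM (log2 fold change -0.56, SE 0.10, adjusted p = 0.0347, limma). The difference between the lines was -0.58 for PRDX1 (adjusted p = 0.0162, limma). After median-ratio scaling neither PRDX1 call remained (adjusted p = 0.115 and 0.131). SOD1 and CAT had log2 fold changes of -0.36 and 0.51 in MONO-MAC-6 and did not pass. In MOLM-13, 0 of 15 passed (limma), with 1 at an unadjusted p under 0.05.

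Of 12 tested transcription factors known to act on oxidase genes, SPI1, which encodes PU.1, rose in MONO-MAC-6, 0 fell and 11 did not pass. There, 4 of the 12 reached an unadjusted p under 0.05 (limma). SPI1 had 271, 246 and 268 TPM with DMSO and 342, 336 and 344 TPM with A9 (log2 fold change 0.38, SE 0.07, adjusted p = 0.0450, limma). After median-ratio scaling its log2 fold change was 0.22 and its adjusted p 0.419 (limma). In MOLM-13, 0 of 12 passed (limma), with 2 at an unadjusted p under 0.05.

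Phagocytic receptors that trigger the oxidase were mostly scarce, with 7 of 14 tested in MONO-MAC-6 and 6 in MOLM-13. CD14, the co-receptor for bacterial lipopolysaccharide, rose in MONO-MAC-6 from 3.71, 2.66 and 3.05 TPM to 12.4, 13.1 and 13.5 TPM (log2 fold change 1.77, SE 0.14, adjusted p = 0.00256, limma). It was at 0.225 to 0.491 TPM in the 6 MOLM-13 samples, under the filter of that line. The difference between the lines was 1.73 (adjusted p = 0.000215, limma), but at such levels the log2(TPM + 1) scale holds a change near 0, so this value mostly repeats the change in MONO-MAC-6. The other 6 receptors tested in MONO-MAC-6 did not pass, and in MOLM-13 0 of 6 passed (limma), with 0 at an unadjusted p under 0.05. FPR1, FPR2 and FPR3, receptors for bacterial formyl peptides, had means of at most 0.152 TPM in every group. The summed level of the 9 myeloid markers also differed between these samples, at 3509 to 4067 TPM in MONO-MAC-6 with DMSO and 8226 to 8530 TPM with A9, and at 499 to 548 and 716 to 821 TPM in MOLM-13. In MONO-MAC-6 the sum was mostly LYZ, with means of 3413 and 7681 TPM. Single markers differed in direction there: CD68 had means of 52.5 and 173 TPM, ITGAM of 2.98 and 3.01 TPM, and MPO of 51.9 and 37.7 TPM, and ITGAM and MPO overlapped between groups. SPI1, CD14, ITGAM, FCGR1A and MPO stand in both these markers and the lists above. The 5 neutrophil markers summed to 2146 to 2721 and 2773 to 2897 TPM in MONO-MAC-6 and to 793 to 1078 and 1532 to 1610 TPM in MOLM-13, nearly all from ELANE, with FCGR3B and LTF at or near 0. In bulk RNA, more cells of a type and more RNA per cell cannot be told apart, and the part of these markers in the oxidase values was not tested.

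Of 10 genes near NCF1 on chromosome 7, 0 passed the test in either line (limma), with 3 in MONO-MAC-6 at an unadjusted p under 0.05 and 1 in MOLM-13. Their median log2 fold changes were -0.08 for MOLM-13 and 0.17 for MONO-MAC-6, against -0.57 and 1.41 for NCF1. Of 10 genes of other NADPH oxidases and their partners, DUOX1 alone was tested in MOLM-13, with DUOX1 and NOXA1 in MONO-MAC-6, and 0 passed (limma; 0 and 1 at an unadjusted p under 0.05). NOX1, NOX3, NOX4 and NOX5 had means of at most 0.381 TPM in every group.

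The calls in MONO-MAC-6 depended on single samples. CD14 passed in each of the 6 fits with 1 sample left out (adjusted p up to 0.0324, limma). NADK, PGD and TKT passed only without DMSO sample 1 or 3, and their adjusted p reached 0.133, 0.165 and 0.209 without A9 sample 2. ARHGDIB, SPI1 and PRDX1 passed only without DMSO sample 1, and reached 0.135, 0.251 and 0.206 without A9 sample 2 (SPI1 reached 0.257 without A9 sample 3). With no filter on low values, ARHGDIB and CD14 kept their calls, while NADK, PGD, TKT, PRDX1 and SPI1 did not pass (adjusted p = 0.05003, 0.0677, 0.0775, 0.0640 and 0.0791, limma). Without DMSO sample 1, the sample that stood apart, the counts in MONO-MAC-6 were 5 higher and 1 lower of 19 for assembly. They were 6 and 1 of 9 for NADPH supply, 7 and 7 of 15 for peroxide handling and 4 and 0 of 12 for transcription factors. For receptors they were 3 and 0 of 7, and for the neighbours of NCF1 3 and 0 of 10. The relatives of RAC2 had 1 and 0 of 6 (RHOH), and other NADPH oxidases 1 and 0 of 2 (DUOX1). In that fit 3202 genes passed in all, 58.4% of them higher, where the fit with all samples passed 433 of 12862. The counts of the lists are to be read against this larger number.

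**Figure D4:**
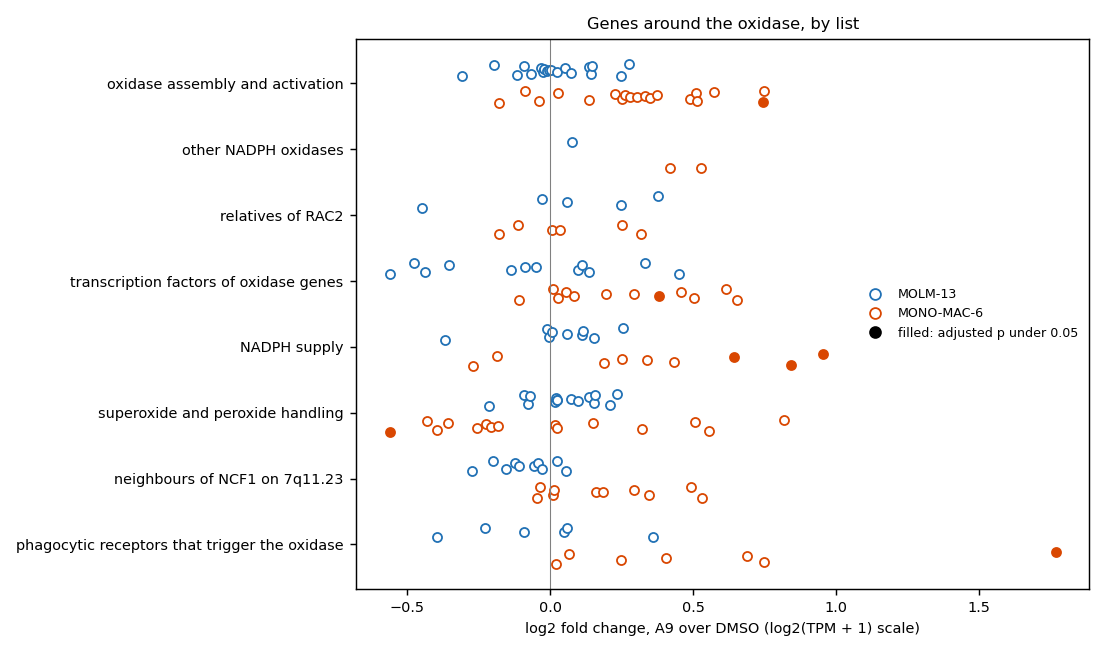
Log2 fold change of A9 over DMSO (horizontal axis, log2(TPM + 1) scale) for every tested gene of 8 lists, in MOLM-13 (blue) and MONO-MAC-6 (orange), filled where the adjusted p is under 0.05. No blue point is filled, and the filled orange points include 3 genes of NADPH supply and CD14 at 1.77.

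Over the 12 samples, the genes with levels most like NCF1, by Pearson correlation of log2(TPM + 1) among the 9123 genes that averaged 5 TPM or more, were PLAUR (r = 0.996), PLIN2 (0.994), TPSD1 (0.994), PLIN5 (0.993) and COL6A1 (0.993). Those most like CYBB were STAT2 (0.996), PPP1R15A (0.992), SLC35C2 (0.991), ASAH1 (0.990) and EIF4A2 (0.989). The 12 points fall into 2 lines that differ in many genes, so these values describe a shared order of groups and have no test. PLAUR had means of 28.7 and 26.8 TPM in MOLM-13 and 60.9 and 94.3 TPM in MONO-MAC-6 with DMSO and A9. COL6A1 was at 0.0083 and 0.00744 TPM in MOLM-13 and at 17.5 and 71.5 TPM in MONO-MAC-6.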

How the data were processed

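RNA was measured by poly(A) sequencing in 36 libraries. The authors deposited TPM per Ensembl transcript in 1 table per line. The submitters' processing notes name kallisto, limma and GRCh38, without versions. Transcripts were matched to GENCODE 29 (162526 of 207175, holding 89.8% to 91.4% of TPM) and summed by symbol. For the oxidase genes, the tables held 11 of 11 GENCODE transcripts of NCF1, 1 of 3 of NCF1B, 1 of 1 of NCF1C, 4 of 4 of NCF4, 9 of 10 of CYBA, 2 of 2 of CYBB and 7 of 7 of RAC2.

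The 3 libraries sharing a first label number were averaged. Genes averaging 1 TPM or more in either group compared (any of the 4 for the difference) were fitted on log2(TPM + 1) with limma 3.58.1 in R 4.3.3 (eBayes with trend and robust), two-sided, with Benjamini-Hochberg adjustment over all genes and a threshold of 0.05. The method was tested on simulated data. TPM hold no counts, so no counting interval is given. Tables and figures used Python 3.11.15, pandas 2.3.3 and matplotlib 3.10.9. Named genes were the 7 members, CYBC1, RAC1, up to 4 genes per list past the threshold, and the 5 genes most like NCF1 and CYBB. The genes in the captions and lists that were named without a call (such as SOD1, CAT, PGLS, IDH2, MTHFD1, the NOX and FPR genes, and NCF1-207) were chosen after their values were seen. A few genes of the lists are not reported here and were left out of their counts. Members, lists and rules were chosen with earlier results of these data known. Alternatives were another pseudocount, filter, threshold, use of libraries, scaling, removal of trends on length or GC content, a replicate block, protein-coding transcripts alone, copies summed, and each sample left out.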

Additional observations from a re-analysis of the deposited data

Results flagged for a closer look

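The A9 effect had opposite directions in the lines for the 3 NCF1 genes: every A9 sample was below every DMSO sample in MOLM-13 and above it in MONO-MAC-6. The log2 differences, MONO-MAC-6 minus MOLM-13, were 1.98 for NCF1, 2.14 for NCF1B and 2.31 for NCF1C. These differences were not tested, because they chose the genes.

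Among the genes named from the lists, a difference between the lines passed the limma interaction test (adjusted p under 0.05) for ARHGDIB at 0.69, PRDX1 at -0.58 and CD14 at 1.73, where 401 of 13401 genes passed in all. After median-ratio scaling ARHGDIB and PRDX1 did not pass (adjusted p = 0.0626 and 0.131), and with 1 sample left out they passed in 6 and 8 of 12 fits. CD14 was under the filter in MOLM-13, so its value mostly repeats the change in MONO-MAC-6. Line and dose cannot be told apart in any of them.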

How the results depend on the processing

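The 14, 433 and 401 genes called in MOLM-13, in MONO-MAC-6 and for the difference between the lines moved by over 1.5 times under several settings, and the cause was not tested. With libraries averaged by second number the counts were 5437, 8697 and 8499, and with 9 libraries per group 1742, 5580 and 5620. Both settings use libraries of the same sample as replicates. For each oxidase gene the spread between such libraries was smaller than that between samples, so these counts are not comparable with the others. The length trend removed gave 119, 1064 and 672. The GC trend removed gave 62 and 861 in the lines, and median-ratio scaling 48 in MOLM-13. No filter gave 4 and 254 in the lines. A threshold of 0.01 gave 4, 109 and 146. With the replicate block the counts were 87, 102 and 207, and of the named genes tested in MONO-MAC-6 CD14 alone was called (adjusted p = 0.0350), the next being ARHGDIB at 0.0592 and NADK, PGD and TKT at 0.0604 or more. Same-numbered samples had correlations of 0.536, -0.0615 and 0.79 in MOLM-13 (numbers 1 to 3) and -0.224 to 0.178 in MONO-MAC-6. Numbers 1 and 3 thus shared deviations in MOLM-13, and whether the numbers pair the samples was not tested. With 1 sample left out the counts ran from 2 to 8, from 59 to 3202 and from 197 to 548. In MONO-MAC-6, 74.6% of calls were higher, and 62.7%, 53.5% and 56.4% after scaling, removal of the length trend and removal of the GC trend. For the difference 64.3% were higher, and 49.6% and 51.7% with the length or GC trend removed. Scaling moved the median log2 fold change of all genes in MONO-MAC-6 from 0.16 to 0.02. The NCF1 log2 fold change ran from 1.25 to 1.48 in MONO-MAC-6 and from -0.61 to -0.52 in MOLM-13 over the alternatives that kept the copies apart. With the copies summed the values were 1.5 and -0.60. For the 7 genes, 340 of 359 alternative values moved by less than 1 SD of the samples. For the other named genes, 394 of 496 kept their side of the threshold, 67 lost a call and 35 gained one. These tallies include both settings that use libraries as replicates. TPM hold no counts, so the limit that depth sets is unknown.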
